A study of Homo sapiens with 52 samples.

Results

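The genes described here are the insulin-like growth factor (IGF) axis: the ligands IGF1 and IGF2, the receptor IGF1R and the binding proteins IGFBP1 to IGFBP7. They were chosen by gene symbol and are 10 of the 59408 genes measured. All 10 have a row in every table, and 8 of the 10 passed the filter on low values, as did 14898 genes in all; it asks for an average normalized count of 10 or more across the 26 groups. IGFBP1 and IGF1 did not pass it, and their values are given without a test.

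mRNA sequencing was done on WI-38 cells, diploid fibroblasts from human lung that stop dividing after a limited number of doublings. Cells were treated for 24 h with the detergent SDS at 0.009%, which damages the plasma membrane (PMD-Sen), with KCl at 75 mM (Ca2+-Sen), or with doxorubicin at 250 nM, which damages DNA (DDR-Sen), then washed and harvested at 8 times from day 0 to day 16 (daily up to day 4, then on days 6, 8 and 16). Replicatively senescent cells (RS) at about 52 population doublings and untreated cells at 32 to 46 population doublings complete the 26 groups, each of 2 libraries. The study's methods call the 2 libraries of a group independent samples, and the labels add nothing on how they were kept apart. All groups are the same cell strain, and the range of population doublings given for the untreated cells does not show which doubling each library came from. In units of 1000000 counted reads, the libraries held an estimated 15.4 to 58.0, with a median of 28.9, and the untreated libraries, at 15.4 and 18.8, were among the shallowest.

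IGF1 and IGF2 are secreted growth factors that act through IGF1R, a receptor tyrosine kinase that signals to PI3K, AKT and mTOR. The binding proteins are secreted too. They hold IGFs in the fluid around cells, which keeps the ligand from the receptor or delivers it, and proteases such as the pappalysins release the ligand by cutting IGFBP4 and IGFBP5. IGFBP7 binds IGFs only weakly. Several of these proteins, IGFBP3, IGFBP5 and IGFBP7 among them, are known as secreted products of senescent fibroblasts.

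The genes lie on 7 chromosomes (GRCh38, GENCODE v29). IGFBP2 (chromosome 2, 216632828 to 216664436, plus strand) and IGFBP5 (chromosome 2, 216672105 to 216695525, minus strand) are neighbours whose 3′ ends face each other across 7668 bases. IGFBP1 (chromosome 7, 45888357 to 45893668, plus strand) and IGFBP3 (chromosome 7, 45912245 to 45921874, minus strand) lie 18576 bases apart in the same arrangement. IGFBP4 is at chromosome 17, 40443461 to 40457731 (plus strand), IGFBP6 at chromosome 12, 53097436 to 53102345 (plus strand), and IGFBP7 at chromosome 4, 57030773 to 57110385 (minus strand). IGF1 is at chromosome 12, 102395874 to 102481744 (minus strand), and IGF1R at chromosome 15, 98648539 to 98964530 (plus strand). IGF2 has 2 records on the minus strand of chromosome 11, starting at base 2129112 and ending at 2149603 and 2158658.

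The 250 bases before the RefSeq start (GRCh38.p14) are shown for IGFBP3, IGFBP4 and IGFBP5. These 3 were chosen because they were highly expressed, have 1 listed start each and were called lower than untreated on day 1 of PMD-Sen. Of the 10 genes, 7 are in the promoter table used. Sequences read 5′ to 3′ on the gene's own strand, and capitals mark matches, on either strand, to TATANA, the core of a TATA box, or to GGGCGG, a GC box. CCAAT was searched in the same way and matched in none of the 3.
IGFBP3, chr7:45921273-45921522, minus strand: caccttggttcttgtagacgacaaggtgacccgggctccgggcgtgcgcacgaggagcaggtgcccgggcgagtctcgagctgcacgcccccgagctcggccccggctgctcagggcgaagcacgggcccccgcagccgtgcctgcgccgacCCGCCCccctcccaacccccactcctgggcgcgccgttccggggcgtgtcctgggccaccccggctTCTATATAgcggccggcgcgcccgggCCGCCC
IGFBP4, chr17:40443200-40443449, plus strand: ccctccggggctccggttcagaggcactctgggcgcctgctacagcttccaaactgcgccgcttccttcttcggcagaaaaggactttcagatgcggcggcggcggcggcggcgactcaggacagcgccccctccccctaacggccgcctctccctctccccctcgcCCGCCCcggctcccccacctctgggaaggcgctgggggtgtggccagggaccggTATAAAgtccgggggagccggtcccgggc
IGFBP5, chr2:216695550-216695799, minus strand: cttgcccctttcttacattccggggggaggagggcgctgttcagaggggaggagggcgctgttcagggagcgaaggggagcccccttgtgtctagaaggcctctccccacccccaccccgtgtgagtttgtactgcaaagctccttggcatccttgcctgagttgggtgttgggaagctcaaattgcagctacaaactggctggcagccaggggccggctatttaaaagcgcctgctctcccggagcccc
In IGFBP3, overlapping TATANA matches began 32 and 30 bases before the start and GGGCGG matches 98 and 6 bases before it. In IGFBP4, TATANA matched at 29 bases and GGGCGG at 83 bases before the start, and in IGFBP5 none of the letters searched was found. TATANA occurred in 18.3%, CCAAT in 33.0% and GGGCGG in 42.3% of 27305 promoters of the same length. The share of G and C was 76.0%, 71.6% and 61.2% in the 3 windows, against a median of 58.0% over all promoters. A match is a description of letters, not evidence of a bound factor.

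Levels below are normalized read counts on 1 scale for all groups. The 2 values given for a group are its 2 libraries, lower first. Changes are log2 fold changes against untreated cells with their standard errors (SE), tested by the deposited change over its SE with Benjamini-Hochberg adjustment over the 14898 genes, and called at an adjusted p below 0.05. The RS libraries stood apart from each other: the higher was 4.38 times the lower for IGFBP3, 3.22 times for IGFBP5, 2.74 times for IGFBP6 and 2.29 times for IGFBP2. The untreated libraries also differed for IGFBP2, at 451 and 721, and for IGFBP5, at 99470.3 and 152973. In these bulk samples, fewer cells that express a gene and less RNA per cell cannot be told apart.

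Markers of fibroblasts were present in every group: 8 of 8 fibroblast markers had a mean of at least 10, with COL1A1 the most abundant, and their summed level was 590773 in untreated cells and 241544 to 624163 over all groups, lowest on day 0 of Ca2+-Sen. Of 4 endothelial markers 2 passed the filter, with a summed level of 26.8 to 175.3 and VWF the most abundant on average, and the highest sum was also on day 0 of Ca2+-Sen. PECAM1, an endothelial adhesion molecule, made up most of that sum, at 107.6 against 2.2 in untreated cells, and exceeded VWF, at 65.7, in that group. CDH5, the endothelial cadherin, was at 1.48 or less in every group. No epithelial or leukocyte marker of 4 each passed it, and their sums stayed at or below 22 and 22.4. Whether these differences in marker level have a part in the results below was not tested.

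Compared per kilobase of exon, the untreated cells' most abundant binding protein mRNAs were IGFBP5, at 15441 and 23746 normalized counts per kilobase, and IGFBP4, at 16694 and 16994. The ranges of these 2 overlap, so their order was not resolved. IGFBP7 followed at 5314 and 6145, then IGFBP6 at 2136 and 2189.9 and IGFBP3 at 1483 and 1705. These 5 stood well above IGF1R, at 162 and 163, and IGFBP2, at 94.7 and 151, whose ranges were close but did not overlap. IGF2, at 1.56 and 1.60, and IGFBP1, at 0.907 and 2.23, overlapped near the bottom. IGF1, at 0 and 0.185, came last.

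**Figure D1:**
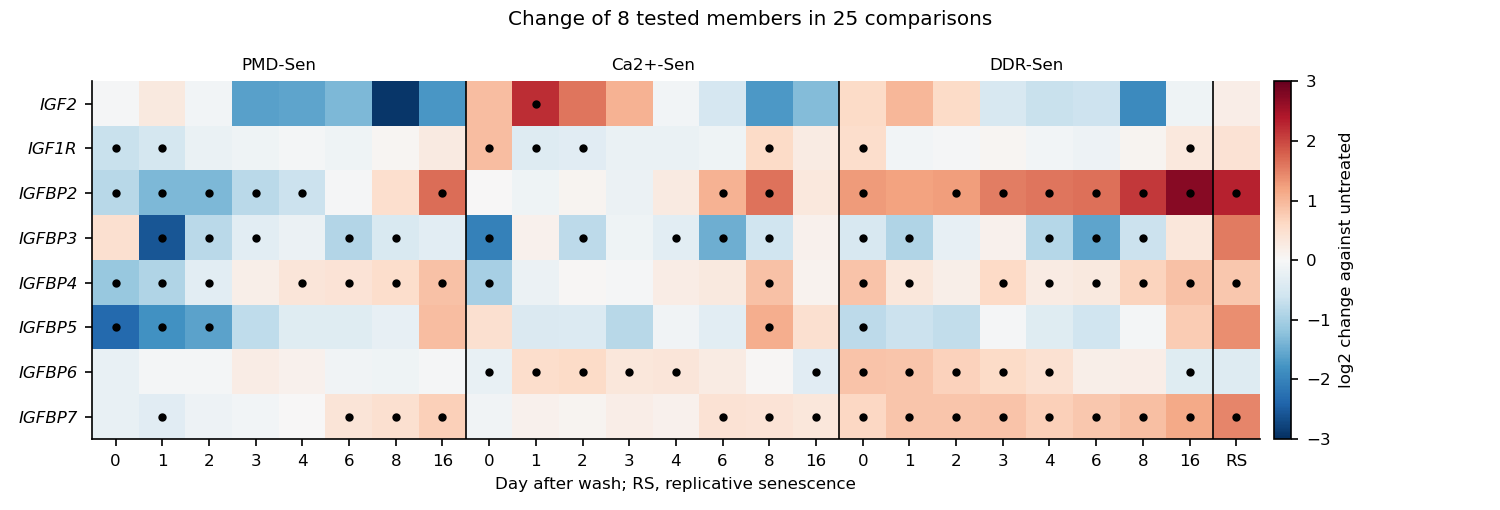
Log2 fold change against untreated cells (colour) of the 8 tested genes (rows) in 25 groups (columns: 8 days of each inducer, treated as categories, and RS), with dots on called changes. IGFBP7 was called higher on all 8 days of DDR-Sen, and IGFBP2 and IGFBP4 on 7 each, while the calls on days 0 to 3 of PMD-Sen were all lower.

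In PMD-Sen, 4 of the 8 tested genes were called on day 0, all lower, where 39.9% of all tested genes were called. On day 1 this was 6 genes, all lower (background 19.7%), on day 2 it was 4, all lower (15.8%), and on day 3 it was 2, both lower (11.5%). Calls then turned: 1 higher and 1 lower on day 4 (15.7%), 2 higher and 1 lower on days 6 (12.8%) and 8 (11.8%), and 3 higher with none lower on day 16 (21.2%).

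In Ca2+-Sen, 1 gene was called higher and 3 lower on day 0, when 50.1% of all tested genes were called, so that the share of these genes was no higher than the background. Day 1 gave 2 higher and 1 lower (12.5%), day 2 gave 1 and 2 (4.33%), day 3 gave 1 and 0 (10.5%), day 4 gave 1 and 1 (12.0%) and day 6 gave 2 and 1 (10.2%). Day 8 stood out within this series, with 5 higher and 1 lower of 8 (33.3%). By day 16 there was 1 of each (11.9%).

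In DDR-Sen, most calls were higher from the first sample on: 5 higher and 2 lower on day 0 (27.9%), 3 and 1 on day 1 (19.5%), 3 and 0 on day 2 (12.7%) and 4 and 0 on day 3 (11.6%). Days 4 to 16 gave 4 higher and 1 lower on day 4 (18.4%), 3 and 1 on day 6 (24.5%), 3 and 1 on day 8 (22.0%) and 4 and 1 on day 16 (29.8%). In RS, 3 of 8 were called, all higher, against a background of 23.1%. The 25 comparisons share the same 2 untreated libraries, so they are not independent of one another.

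The ligands were scarcely expressed. IGF1 had 151 reads in all over the 52 libraries, with 0 in 12 libraries, and 0 and 1 in the untreated ones. The groups with most reads were day 0 of Ca2+-Sen, with 20 and 12, and RS, with 8 and 15, and no fold change is given because the mean was below the filter. A count of 0 allows up to 3 reads, which is a level of 1.2 to 3.5 depending on the library.

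IGF2 had 1001 reads in all, and 10 and 8 reads in the untreated libraries, a level of 12 and 12.3. On day 1 of Ca2+-Sen it had 75 and 74 reads, a level of 48 and 65.3, both above untreated. The change of 2.22 (SE 0.60) was the only call for IGF2 in 25 comparisons (adjusted p = 0.0033). Both libraries were also above untreated on days 0, 2 and 3 of Ca2+-Sen, with changes of 0.92, 1.60 and 1.05 that were not called (adjusted p = 0.31, 0.232 and 0.525). The same held on days 1 and 2 of DDR-Sen and day 1 of PMD-Sen, with changes of 0.99, 0.57 and 0.29 (adjusted p = 0.431, 0.828 and 0.905). Both libraries were below untreated on days 3 to 16 of PMD-Sen, days 4 to 16 of Ca2+-Sen and days 3 to 8 of DDR-Sen, with changes from -2.92 to -0.09, none of them called. The lowest group was day 8 of PMD-Sen, with 3 and 2 reads. The RS libraries disagreed, with 58 and 8 reads. INS-IGF2 and AC132217.1, which overlap IGF2 on the same strand, were at 0 in every group, and whether reads in such overlaps were dropped is not given in the sources used here.

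**Figure D2:**
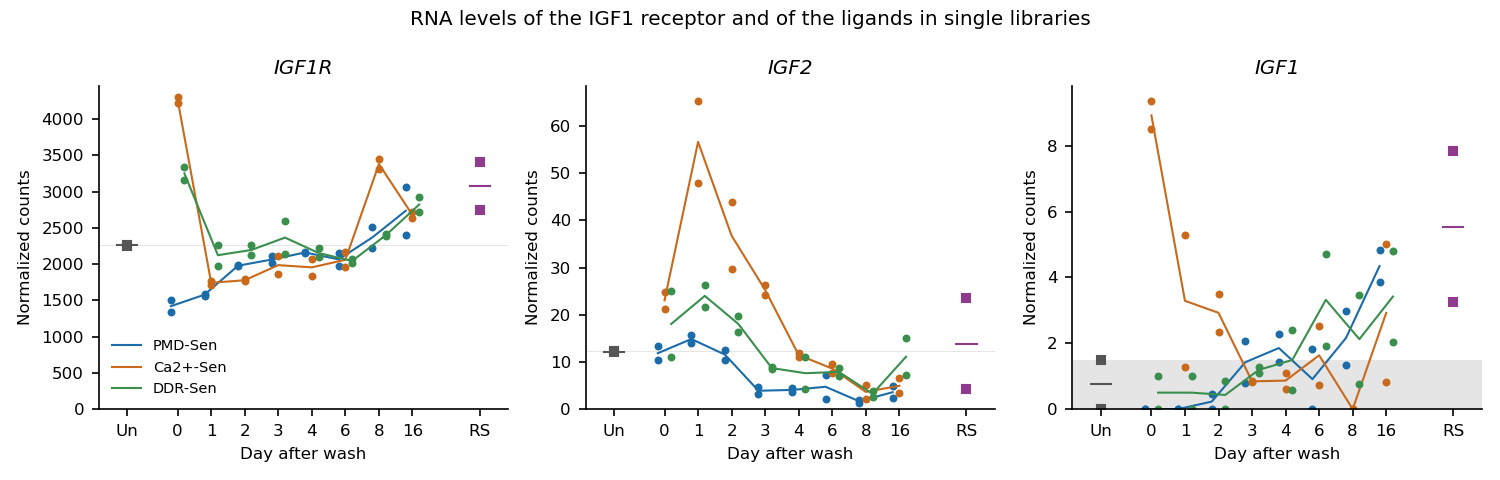
Normalized read counts (vertical axes, linear from 0) of IGF1R, IGF2 and IGF1 in each library (points; squares for untreated cells and RS) by day (horizontal axis, days as categories), with lines and dashes at group means and a grey band over the range of the 2 untreated libraries. IGF1R stayed within a 3-fold range of group means, while IGF2 peaked on day 1 of Ca2+-Sen.

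The receptor, IGF1R, was expressed in every group and responded in opposite directions on the last day of treatment. It was at 2257 and 2269.8 in untreated cells, at 1337 and 1505 on day 0 of PMD-Sen, at 4222 and 4309.9 on day 0 of Ca2+-Sen and at 3160.0 and 3345 on day 0 of DDR-Sen. None of these pairs overlapped the untreated pair. The changes were -0.67 (SE 0.12), 0.91 (SE 0.09) and 0.52 (SE 0.11), with adjusted p = 2.10e-07, 2.63e-24 and 1.18e-05. On day 1 of PMD-Sen it was still lower (-0.52, SE 0.10, adjusted p = 7.64e-06). The rise in Ca2+-Sen was gone a day later, when IGF1R was called lower at -0.38 on day 1 and -0.35 on day 2. It was called higher again on day 8 of Ca2+-Sen (0.58, SE 0.09, adjusted p = 2.37e-10) and on day 16 of DDR-Sen (0.32, SE 0.12, adjusted p = 0.0292). In RS both libraries lay above untreated, at 2748 and 3409, and the change of 0.44 (SE 0.18) missed the threshold (adjusted p = 0.0579). Without the filter the call of day 16 of DDR-Sen was lost (adjusted p = 0.0633), and with changes centred on their median the RS change was called (adjusted p = 0.0462). The change on day 16 of Ca2+-Sen, 0.24, was not called (adjusted p = 0.0593) except with a filter at a mean of 100 (0.0452) and with that centring (0.0414).

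**Figure D3:**
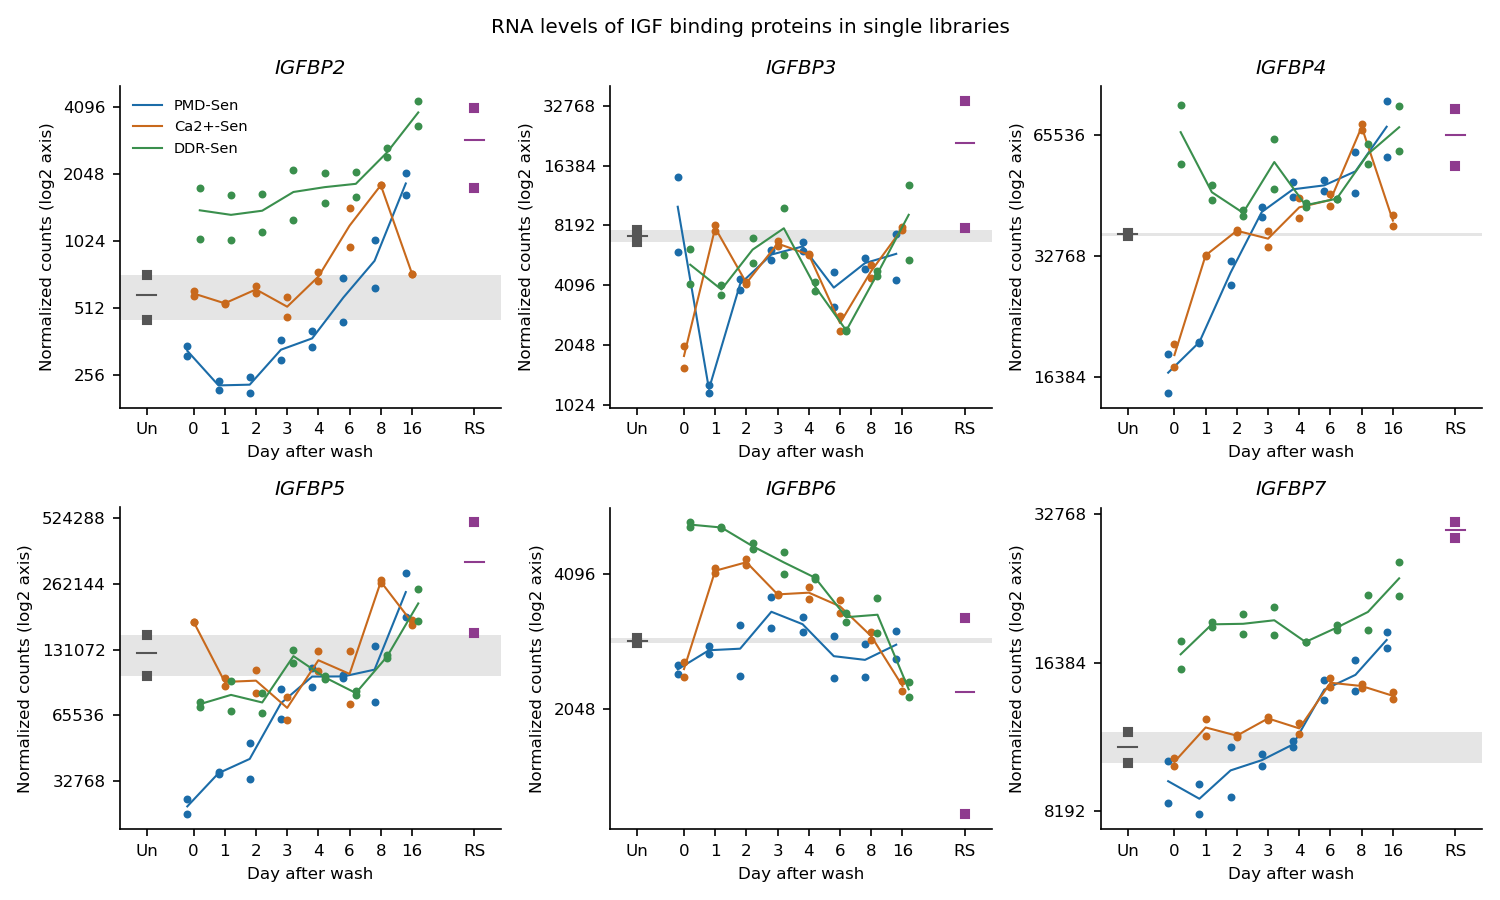
Normalized read counts (vertical axes, log2 scale) of the 6 tested binding proteins in each library (points; squares for untreated cells and RS) by day (horizontal axis, days as categories), with lines and dashes at group means and a grey band over the range of the 2 untreated libraries. IGFBP2 and IGFBP5 dipped below the band early in PMD-Sen and lay above it on day 16, and IGFBP7 lay above it throughout DDR-Sen.

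IGFBP2, a binding protein with a preference for IGF2, had a 16.9-fold range of group means, from day 1 of PMD-Sen to day 16 of DDR-Sen. Against 451 and 721 in untreated cells, it was at 220.5 and 240.4 on day 1 of PMD-Sen, at 344 and 406 on day 4 and at 1651 and 2074 on day 16. It was called lower on days 0 to 4, with the lowest change on day 1 (-1.35, SE 0.22, adjusted p = 3.82e-08), and 3.17-fold higher on day 16 (1.67, SE 0.23, adjusted p = 4.53e-11). The libraries of days 6 and 8 overlapped untreated.

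In DDR-Sen IGFBP2 was high already at the end of treatment, at 1044 and 1779, and at 3378 and 4390.3 on day 16. Both libraries were above untreated on all 8 days. It was called higher on 7 days, from 1.27 (SE 0.50) on day 0 (adjusted p = 0.0441) to 2.73 (SE 0.38) on day 16 (adjusted p = 2.19e-11), and day 1 missed the threshold (adjusted p = 0.0506). Day 1 was called with a filter at a mean of 100, under either other scaling and with the deposited adjusted p, at 0.0394 to 0.0461. Without the filter on low values the calls of days 0 and 2 were lost, with adjusted p = 0.0985 and 0.068. In Ca2+-Sen IGFBP2 was called higher on day 6, at 963 and 1445 (1.04, SE 0.25, adjusted p = 0.00114). It was called higher on day 8 too, at 1826 and 1832 (1.64, SE 0.33, adjusted p = 5.81e-06). On day 16 it was at 731 and 733, just above the untreated pair, and the change of 0.32 (SE 0.19) was not called (adjusted p = 0.352). RS was at 1773 and 4069, a 4.98-fold rise (adjusted p = 1.96e-07), which was 3.03-fold without the higher RS library.

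IGFBP3, the main IGF carrier in serum, was the only tested binding protein with no call in the higher direction: 15 of 25 comparisons were lower and 10 were not called. It was at 6778 and 7795 in untreated cells and at 1176 and 1287 on day 1 of PMD-Sen, 5.91-fold lower (-2.56, SE 0.10, adjusted p = 2.73e-134). On day 0 of PMD-Sen, a day earlier, the libraries were at 6011 and 14330.4 and spanned the untreated ones. In Ca2+-Sen the order was the other way round: 1573 and 2038 on day 0, 4.04-fold lower (adjusted p = 4.56e-58), and 7682 and 8228 on day 1, which overlapped untreated.

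All 3 inducers had IGFBP3 low on day 6. It was at 3187 and 4784 in PMD-Sen (-0.87, SE 0.17, adjusted p = 7.19e-06), at 2420.5 and 2865 in Ca2+-Sen (-1.46, SE 0.14, adjusted p = 1.89e-22) and at 2408 and 2440.3 in DDR-Sen (-1.59, SE 0.09, adjusted p = 2.31e-60). It was called lower with each inducer on day 8 also, at -0.46, -0.59 and -0.64. On day 16 it was called with none. RS libraries were both above untreated but far apart, at 7931 and 34773, and the change of 1.55 (SE 0.91) was not called (adjusted p = 0.231). Leaving out either RS library or either untreated library moved it between 0.12 and 2.25.

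IGFBP4, which mainly inhibits IGF action and is cut by pappalysin, fell with SDS and KCl and rose with doxorubicin at the end of treatment. From 36728 and 37388 in untreated cells it was at 14915 and 18598 in PMD-Sen, at 17294 and 19772 in Ca2+-Sen and at 55359 and 77736 in DDR-Sen on day 0. None of these pairs overlapped the untreated pair, while those of PMD-Sen and Ca2+-Sen overlapped each other. The changes were -1.15 (SE 0.11), -1.0 (SE 0.08) and 0.84 (SE 0.14), with adjusted p = 5.14e-24, 1.68e-30 and 7.15e-08. In PMD-Sen it then climbed: -0.89 on day 1, -0.32 on day 2, 0.37 on day 4 and 0.89 (SE 0.17) on day 16, when the libraries were at 57559 and 79753 (adjusted p = 5.53e-06).

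IGFBP4 was also called higher late in DDR-Sen, at 59746 and 77168 on day 16 (0.89, SE 0.13, adjusted p = 8.46e-11), and in RS, at 54677 and 76098 (0.82, SE 0.21, adjusted p = 7.79e-04). In Ca2+-Sen it reached 67547 and 69639 on day 8 (0.89, SE 0.06, adjusted p = 8.35e-42) and was back at 38809.5 and 41338 on day 16, a change of 0.11 (SE 0.07) that was not called. The change on day 4, 0.22, was not called (adjusted p = 0.0546). It was called with a filter at a mean of 100, under either other scaling and with the deposited adjusted p, at 0.0357 to 0.0449. Days 6 and 1 were called only with that filter, higher at 0.28 (adjusted p = 0.0477) and lower at -0.17 (0.0466). In DDR-Sen it was called higher on every day except day 2, when the change was 0.18 (adjusted p = 0.087); scaled by group totals, day 2 was called too (adjusted p = 0.0355).

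IGFBP5, a binding protein that also attaches to the extracellular matrix, fell early in PMD-Sen, with the largest drop after that of IGFBP3. Its untreated libraries were at 99470.3 and 152973. On day 0 of PMD-Sen it was at 23019 and 27116, 5.04-fold lower (-2.33, SE 0.33, adjusted p = 1.28e-11), and it was still lower on day 1, at 35183 and 36022 (adjusted p = 5.53e-08), and on day 2, at 33562 and 49199.7 (adjusted p = 0.00116). On day 16 both libraries lay above the untreated pair, at 186098 and 295652, but the change of 0.93 (SE 0.45) was not called (adjusted p = 0.129).

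IGFBP5 also lay above untreated in both libraries, without a call, late in DDR-Sen, in RS and on days 0 and 16 of Ca2+-Sen. It was at 177148 and 250110.1 on day 16 of DDR-Sen (0.76, SE 0.39, adjusted p = 0.142) and at 156614 and 504161 in RS (1.39, SE 0.82, adjusted p = 0.232), where leaving out 1 library moved the change between 0.31 and 2.0. In Ca2+-Sen it was at 175983 and 176273 on day 0 (0.48, SE 0.31) and 170086 and 179776 on day 16 (0.47, SE 0.31). The only call in the higher direction was on day 8 of Ca2+-Sen, at 264087 and 273437 (1.09, SE 0.31, adjusted p = 0.00197). On day 0 of DDR-Sen it was called lower, at 71868 and 75642 (-0.78, SE 0.31, adjusted p = 0.0456). That call was lost without the filter (adjusted p = 0.102) and when changes were centred on their median (0.0654). Both libraries of IGFBP5 were below untreated, without a call, on days 1, 2, 4 and 6 of DDR-Sen. The same held on days 1 and 3 of Ca2+-Sen and on day 3 of PMD-Sen. These uncalled changes lay between -0.83 and -0.37.

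IGFBP6, which binds IGF2 far more strongly than IGF1, rose early with doxorubicin and KCl and was never called in PMD-Sen. From 2875 and 2948 in untreated cells it was at 5215 and 5350.1 on day 0 of DDR-Sen (0.86, SE 0.10, adjusted p = 7.78e-16). The called changes then shrank over days 1 to 4, from 0.84 to 0.70, 0.58 and 0.47. On day 16 it was called lower, at 2177 and 2361 (-0.36, SE 0.12, adjusted p = 0.0117). In Ca2+-Sen it peaked on day 2, at 4289 and 4421 (0.58, SE 0.09, adjusted p = 6.17e-09), and it was also called lower on day 16, at 2244 and 2373 (adjusted p = 0.00323). Its small drop on day 0 of Ca2+-Sen (-0.21, SE 0.09, adjusted p = 0.0485) was lost under either other scaling, without the filter and with the deposited adjusted p, at 0.0588 to 0.201. In PMD-Sen all changes lay between -0.21 and 0.21. The RS libraries fell on both sides of untreated, at 1194 and 3275.

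IGFBP7, a secreted protein with weak affinity for IGFs, was called higher in 15 of 25 comparisons and lower in 1. It was at 10256 and 11861 in untreated cells and above that range on all 8 days of DDR-Sen, from 15930.1 and 18154 on day 0 (0.62, SE 0.12, adjusted p = 9.79e-07) to 22355 and 26250.5 on day 16 (1.14, SE 0.12, adjusted p = 6.00e-19). In PMD-Sen and Ca2+-Sen the rise came later. The rise was first called on day 6 in both, at 0.39 and 0.43. On day 1 of PMD-Sen IGFBP7 was called lower, at 8064 and 9291 (-0.35, SE 0.10, adjusted p = 0.00389). By day 16 PMD-Sen was at 17533 and 18912 (0.72, SE 0.14, adjusted p = 6.24e-06) and Ca2+-Sen at 13809.5 and 14266 (0.34, SE 0.08, adjusted p = 6.19e-04). The highest level was in RS, at 29340.5 and 31604, 2.76-fold above untreated (1.46, SE 0.16, adjusted p = 1.39e-18), where the 2 libraries were close to each other. POLR2B overlaps IGFBP7 on the opposite strand, at a level of 3257 to 5720 over the groups, and whether counting used strand is not given in the sources used here.

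IGFBP1, which is made mainly in liver, had 128 reads in all, 0 in 14 of the 52 libraries and at most 14 in any. It was at 3 and 1 reads in the untreated libraries.

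**Figure D4:**
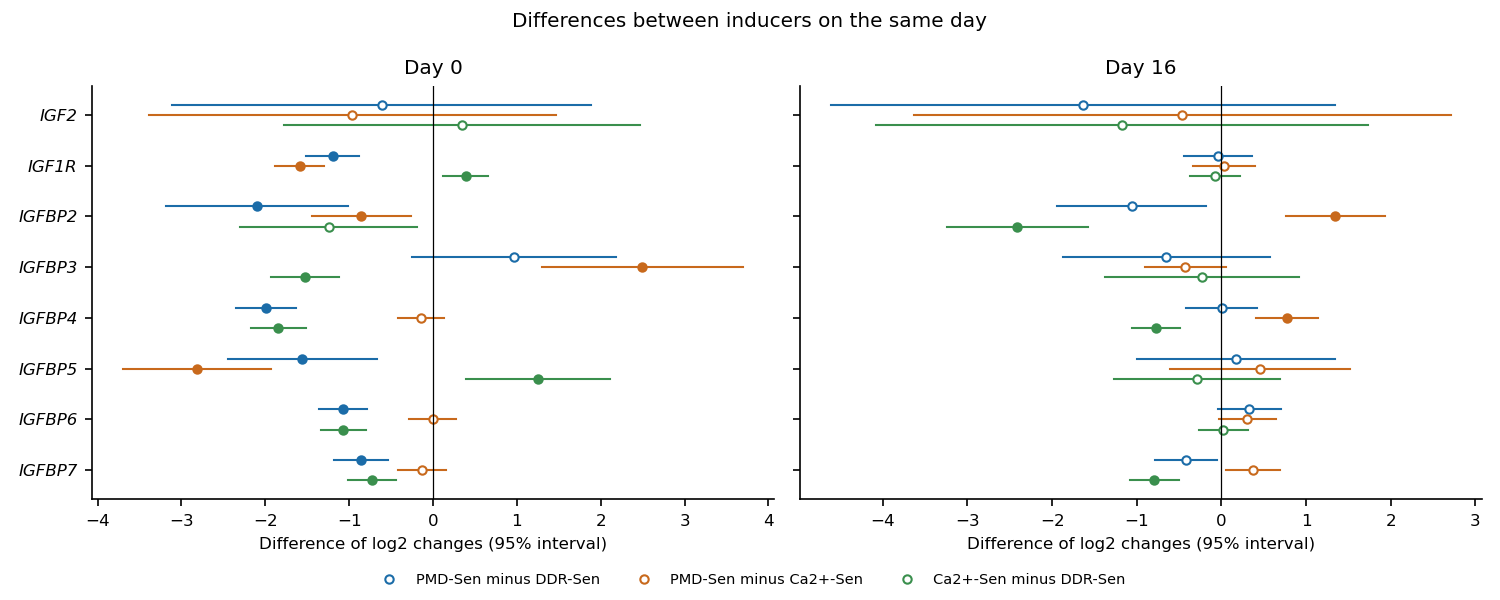
Difference of the log2 fold changes between inducers (horizontal axis, points with 95% intervals) for the 8 tested genes on day 0 and day 16, with filled points for called differences. On day 0 most intervals stood off 0, and on day 16 none of the differences between PMD-Sen and DDR-Sen was called.

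The inducers were compared with each other on day 0 and day 16 by the difference of their log2 changes. Because both changes carry the error of the same untreated libraries, the SE of a difference is too large and the calls too few. Between PMD-Sen and DDR-Sen on day 0, 6 of 8 genes differed, all lower in PMD-Sen (background 28.6%). The difference, PMD-Sen minus DDR-Sen, was -2.10 (SE 0.55) for IGFBP2 on the log2 scale (adjusted p = 9.43e-04) and -1.99 (SE 0.18) for IGFBP4 (adjusted p = 4.44e-26). It was -1.20 (SE 0.16) for IGF1R (adjusted p = 4.46e-12). IGFBP3 did not pass, at 0.97 (SE 0.62), 95% interval -0.25 to 2.19.

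Between PMD-Sen and Ca2+-Sen on day 0, 4 of 8 differed, 1 higher and 3 lower in PMD-Sen (background 38.6%). IGFBP3 was higher in PMD-Sen by 2.50 (SE 0.61, adjusted p = 2.23e-04) and IGFBP5 was lower, at -2.81 (SE 0.45, adjusted p = 5.18e-09). IGFBP4, which fell with both, differed by -0.15 (SE 0.14), 95% interval -0.42 to 0.13. Between Ca2+-Sen and DDR-Sen, 6 of 8 differed, 2 higher and 4 lower in Ca2+-Sen (background 37.1%). IGFBP4 was lower in Ca2+-Sen, at -1.84 (SE 0.17, adjusted p = 2.95e-26), and IGFBP5 was higher by 1.26 (SE 0.44, adjusted p = 0.014).

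By day 16 fewer differences were called. Between PMD-Sen and DDR-Sen there were 0 of 8 (background 0.195%), and 2 at an unadjusted p below 0.05. The intervals were wide: PMD-Sen minus DDR-Sen was -1.06 (SE 0.45) for IGFBP2, 95% interval -1.94 to -0.19, and -0.42 (SE 0.19) for IGFBP7, 95% interval -0.78 to -0.05, each with an adjusted p of 1. Ca2+-Sen was lower than both for IGFBP2 and IGFBP4. PMD-Sen exceeded it for 2 of 8 genes (background 2.72%), IGFBP2 by 1.35 (SE 0.30, adjusted p = 9.59e-04) and IGFBP4 by 0.78 (SE 0.19, adjusted p = 0.00289). DDR-Sen exceeded it for 3 of 8 (background 6.38%): IGFBP2, with Ca2+-Sen minus DDR-Sen at -2.41 (SE 0.42), IGFBP4, at -0.77 (SE 0.14), and IGFBP7, at -0.79 (SE 0.15), with adjusted p = 1.14e-06, 5.89e-06 and 5.47e-06.

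Day 16 was also set against RS. None of the 8 genes was called for PMD-Sen (background 0.685%; 2 at an unadjusted p below 0.05) or for DDR-Sen (background 0.148%; 0 unadjusted), while 3 were lower in Ca2+-Sen than in RS (background 4.25%). These were IGFBP2 at -2.0 (SE 0.44, adjusted p = 3.98e-04), IGFBP4 at -0.71 (SE 0.22, adjusted p = 0.0329) and IGFBP7 at -1.12 (SE 0.18, adjusted p = 5.08e-08). IGFBP7 came close to a call for PMD-Sen, at -0.74 (SE 0.21), 95% interval -1.16 to -0.33 (adjusted p = 0.055). It was called with a filter at a mean of 100 (adjusted p = 0.0443) and when untreated and senescent cells were taken to add equally to each squared SE and the untreated part was removed (adjusted p = 8.20e-05). The spread of the RS libraries leaves the intervals of IGFBP3 and IGFBP5 wide: for DDR-Sen minus RS they were -3.33 to 0.92 and -2.41 to 1.15.

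Within each inducer, day 16 was compared with day 0. In PMD-Sen 5 of 8 genes were higher on day 16 and none lower (background 28.3%): IGFBP5 by 3.26 (SE 0.55), IGFBP2 by 2.50 (SE 0.32), IGFBP4 by 2.03 (SE 0.20), IGFBP7 by 0.95 (SE 0.18) and IGF1R by 0.95 (SE 0.21), with adjusted p of at most 4.13e-05. In Ca2+-Sen 3 were higher, led by IGFBP3 at 2.13 (SE 0.15, adjusted p = 8.65e-44), and IGF1R was lower, at -0.67 (SE 0.13) (background 34.4%). In DDR-Sen 2 were higher, IGFBP5 by 1.53 (SE 0.50) and IGFBP7 by 0.51 (SE 0.17), and IGFBP6 was lower, at -1.22 (SE 0.16) (background 12.6%). IGFBP2, at 1.46 (SE 0.63), was not called (adjusted p = 0.121) unless the untreated part of the error was removed in the same way (adjusted p = 0.00624). IGFBP4, high at both ends of DDR-Sen, differed by 0.04 (SE 0.19), 95% interval -0.34 to 0.42.

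The makeup of the binding protein mRNA differed between groups too. As a percent of the summed level per kilobase of the 7, IGFBP5 took 36.5 and 47.7% in the untreated libraries, 18.2 and 19.9% on day 0 of PMD-Sen, 61.8 and 64% on day 0 of Ca2+-Sen and 18.9 and 22.5% on day 0 of DDR-Sen. The untreated range overlapped none of these. IGFBP4 took 33.5 and 40.2% in untreated cells, 18.4 and 20.3% on day 0 of Ca2+-Sen and 50.8 and 56.8% on day 0 of DDR-Sen. The share of IGFBP7 on day 0 of PMD-Sen, 23.2 and 24.5%, was above its untreated 10.7 and 14.5%, although its level was not called changed there. The share of IGFBP3 was 7.32 and 13.6% on that day against 3.42 and 3.51% in untreated cells.

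The summed level per kilobase of the 7 was 42295.2 and 49803.4 in untreated cells and 17971.7 and 23134.5 on day 0 of PMD-Sen, which did not overlap. On day 16 it was 67403.2 and 96280.3 in PMD-Sen, 69762.2 and 93035.5 in DDR-Sen and 54726.7 and 57763.8 in Ca2+-Sen, all above untreated, and 68907.7 and 138574.8 in RS. These shares describe 2 libraries a group and were not tested.

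**Figure D5:**
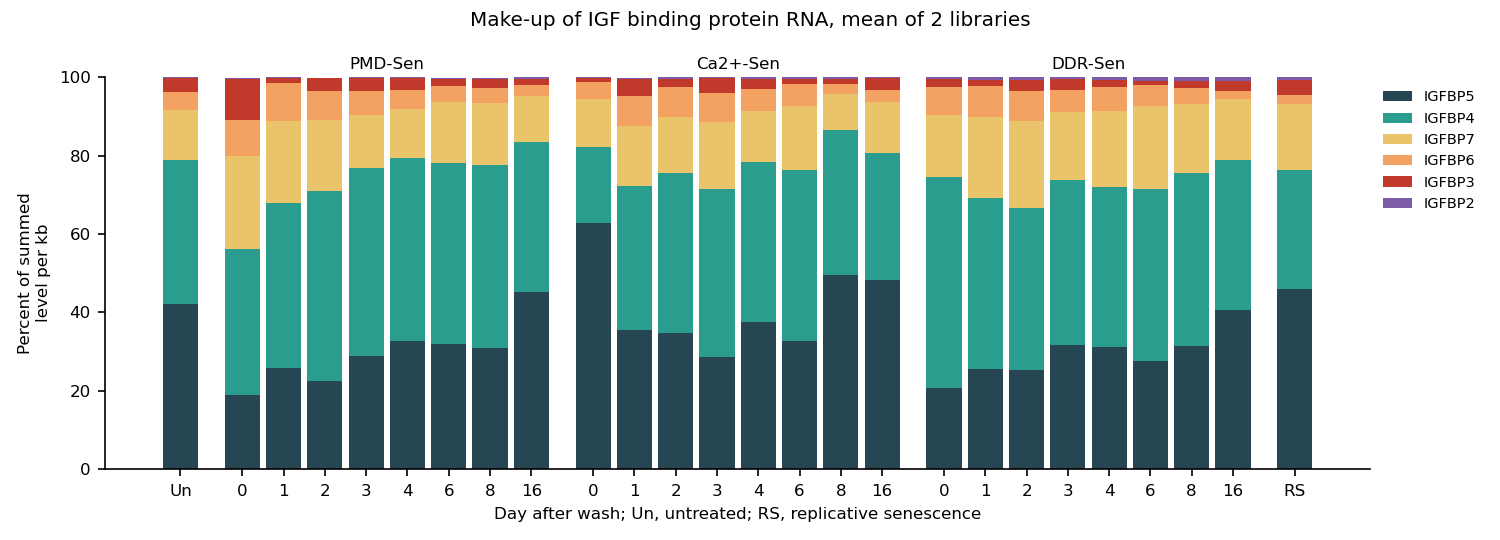
Mean share (percent, vertical axis from 0) of each binding protein in the summed level per kilobase of the 7, as stacked bars of the means of 2 libraries, by group (horizontal axis, days as categories); IGFBP1 is too small to draw. IGFBP5 and IGFBP4 filled most of every bar, and the IGFBP5 part was smallest on day 0 of PMD-Sen and DDR-Sen.

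Genes that act around these members were taken from 5 lists. Their counts of calls stand beside the share of all tested genes called in the same comparison, which on day 0 was 39.9% in PMD-Sen, 50.1% in Ca2+-Sen and 27.9% in DDR-Sen, on day 16 was 21.2%, 11.9% and 29.8%, and in RS was 23.1%. Of the 6 proteases of IGFBPs and their inhibitors, day 0 of PMD-Sen had 4 higher and 0 lower (background 39.9%), and their median log2 change was 1.07 against 0.00 over all tested genes. PAPPA2, a pappalysin that cuts IGFBP5, was at 4.92 and 6.00 in untreated cells and 298 and 324 on day 0 of PMD-Sen, a change of 5.85 (SE 0.58, adjusted p = 1.95e-22). Its untreated libraries had 4 reads each, so the size of the fold is uncertain. STC2, an inhibitor of the pappalysins, rose by 2.02 (SE 0.09, adjusted p = 1.25e-111) in the same group. PAPPA, which cuts IGFBP4, had its largest rise among day 0, day 16 and RS on day 0 of DDR-Sen, from 1474 and 1828 to 7148 and 8974 (2.29, SE 0.14, adjusted p = 9.67e-55). It was called higher on day 0 and day 16 of each inducer and in RS. On day 0 of Ca2+-Sen 1 of the list was higher and 2 lower, on day 0 of DDR-Sen 2 were higher and 0 lower, and on day 16 the counts were 3 and 1 in PMD-Sen, 2 and 1 in Ca2+-Sen and 4 and 0 in DDR-Sen, with 3 and 0 in RS.

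Of 9 further receptors and adaptors, 8 were tested. On day 0, 4 were higher and 2 lower in PMD-Sen (background 39.9%), 5 and 1 in Ca2+-Sen (50.1%), and 3 and 0 in DDR-Sen (27.9%), with medians of 0.53, 0.47 and 0.22; in Ca2+-Sen they were 5 and 0 under either other scaling. On day 16 and in RS at most 2 were higher and at most 1 lower, except that 3 were higher on day 16 of DDR-Sen under either other scaling and in RS with centring on the median. IRS1, a docking protein for IGF1R, fell from 6671 and 6731 to 2825 and 3029 on day 0 of PMD-Sen (-1.20, SE 0.10, adjusted p = 9.79e-32). IRS2, its relative, rose with all 3 inducers on day 0, most in DDR-Sen, at 2236 and 2465 against 1032 and 1083 (1.15, SE 0.12, adjusted p = 1.38e-19). GRB10, an adaptor that restrains IGF1R signalling, rose to 1494 and 1577 from 604 and 636 on day 0 of PMD-Sen (1.31, SE 0.14, adjusted p = 8.28e-20). IGF2R, which takes up IGF2 for breakdown, was called higher on day 0 and day 16 of each inducer and in RS, by 0.40 to 0.86.

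Of 16 FOXO factors and genes that FOXO factors induce, 15 were tested; IRS2 and INSR stand in this list and the one before. On day 16, 10 were higher and 0 lower in PMD-Sen (background 21.2%), 7 and 0 in Ca2+-Sen (11.9%), and 11 and 0 in DDR-Sen (29.8%), with medians of 0.66, 0.38 and 0.62. RS gave 7 and 0 (23.1%), with a median of 0.70. On day 0 the calls were 7 higher and 4 lower in PMD-Sen, 8 and 2 in Ca2+-Sen, and 8 and 0 in DDR-Sen. TXNIP, an inhibitor of thioredoxin and glucose uptake, was at 3435 and 3679 in untreated cells, 281 and 409.9 on day 0 of Ca2+-Sen (-3.38, SE 0.15, adjusted p = 1.01e-113) and 12279 and 20260.5 on day 16 of PMD-Sen (2.19, SE 0.22, adjusted p = 7.78e-22). FBXO32, a ubiquitin ligase subunit of muscle atrophy, rose by 2.79 (SE 0.25) on day 16 of PMD-Sen (adjusted p = 1.79e-26). KLF15, a transcription factor of fasting metabolism, rose by 2.93 (SE 0.54) on day 0 of PMD-Sen (adjusted p = 3.66e-07).

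Of 19 genes of PI3K, AKT and mTOR signalling, 18 were tested, and the calls went both ways. The counts of higher and lower were 4 and 3 in PMD-Sen (background 39.9%), 4 and 6 in Ca2+-Sen (50.1%), and 3 and 4 in DDR-Sen (27.9%) on day 0, with medians between -0.08 and 0.03. The shares in PMD-Sen and Ca2+-Sen were near the background. In Ca2+-Sen the counts were 7 and 6 under either other scaling. On day 16 the 3 inducers had 2 and 4, 3 and 2, and 3 and 1, and RS had 3 and 2. Scaling by group totals gave 4 and 1 on day 0 of PMD-Sen, 2 and 3 on its day 16 and 2 and 3 in RS, and centring on the median gave 3 and 3 on day 16 of PMD-Sen. EIF4EBP1, a repressor of translation that mTOR inactivates, rose to 3794 and 4039 from 714 and 929 on day 0 of PMD-Sen (2.25, SE 0.14, adjusted p = 3.81e-60). It was called lower on day 0 of the other inducers, on day 16 of all 3 and in RS, but the call on day 16 of PMD-Sen (adjusted p = 0.049) was lost under either other scaling (adjusted p = 0.0522 and 0.0649).

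Of 9 regulators of IGF RNA and supply, 6 were tested. HMGA2, a chromatin protein that promotes expression of IGF2BP2, had its largest drop among day 0, day 16 and RS on day 0 of Ca2+-Sen (-2.14, SE 0.10, adjusted p = 1.22e-100). It was called lower in 6 of the 7 groups of day 0, day 16 and RS. Between these times HMGA2 was called higher on days 1, 2 and 3 of PMD-Sen and Ca2+-Sen and on days 1 and 2 of DDR-Sen. It was called lower on day 8 of Ca2+-Sen and on days 4 and 8 of DDR-Sen. GHR, the growth hormone receptor, was at 17.2 and 36 in untreated cells and 214 and 316 in RS, a change of 3.34 (SE 0.44, adjusted p = 2.59e-12), and was also called higher on day 16 of PMD-Sen and DDR-Sen. The ratio of the RS to the untreated mean, 9.98, was 15.4 without the higher untreated library. PLAGL1, a transcription factor of the imprinted gene network, rose by 0.96 (SE 0.10) on day 0 of Ca2+-Sen (adjusted p = 1.91e-20). Over the list, 0 were higher and 3 lower on day 0 of PMD-Sen (1 and 3 when scaled by group totals; background 39.9%), 3 and 2 in Ca2+-Sen (50.1%), and 0 and 2 in DDR-Sen (27.9%). The counts were 1 and 1, 0 and 1, and 1 and 4 on day 16, and 1 and 3 in RS.

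The genes whose levels ran closest to each member over the 26 groups were found by Pearson's r of log2(level + 1). For IGFBP2 these were ITM2B (r = 0.932), IGFBP7 (0.930) and SCN4B (0.919), and for IGFBP7 they were DKK3 (0.950), SCN4B (0.949) and ITM2B (0.933), so that IGFBP2 and IGFBP7 share 2 of their nearest genes. For IGFBP4 they were SCN2A (0.939), GASK1B (0.937) and PAQR7 (0.936), and for IGFBP5 they were TLR3 (0.930), AL138479.2 (0.930) and the cadherin gene CDH11 (0.926). IGFBP6 was nearest to ECM1 (0.877), SCUBE2 (0.838) and PMEL (0.830), and IGF1R to KIDINS220 (0.905), S1PR3 (0.898) and PDGFRB (0.879). IGFBP3 had the weakest neighbours: TMEM237 (0.835), PDE1C (0.831) and IDH2 (0.737). These values describe 26 group means that share inducers and scaling, and Spearman's rho differed from r by at least 0.1 for 4 of the 21, the 3 of IGFBP3 and TLR3.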

How the data were processed

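Per the labels, mRNA from 52 WI-38 samples in 26 groups of 2 was sequenced. The submitters' processing notes name Trim Galore, HISAT2, HTSeq, featureCounts and DESeq2, with GRCh38/hg38; versions, roles and strand setting are not given in the sources used here. The 52 deposited files hold 25 distinct tables, each comparing 1 group with untreated cells. In them the authors give the average normalized count of the 4 libraries compared (a signal), a log2 fold change, its standard error on the log2 scale, their ratio (a score), and a p-value with its adjusted p-value. These are the authors' own comparisons. The log2 changes and standard errors were used because no table of single libraries was given. The deposited p-values served only as an alternative setting.

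The change over its standard error was set against a normal distribution, adjusted by Benjamini-Hochberg over 14898 genes, those averaging 10 or more, and called at an adjusted p below 0.05. Differences between changes combined the standard errors of both changes in quadrature. Library counts were recovered from the deposited means, which are sums of whole counts weighted by size factors, a step chosen after seeing the data. Of 250 sets of counts 203 had 1 solution and 47 were chosen by the deposited change. Other solutions that matched that change almost as well lay within 0.058% of the chosen ones. How far the remaining solutions lay from them was not measured, so these 47 rest on that choice. Which library is replicate 1 is not known. Library totals are estimates that take the 2 libraries of a group to have the same normalized total. The recovery and the tests were tested on simulated data. A row that names no gene, found in 23 of the tables, was dropped; it held at most 0.00223% of the summed means. Levels per kilobase divide by the exon length of GENCODE v29.

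The 10 members were always named. From each of 5 pathway lists up to 3 genes were named, those with the largest called change on day 0, day 16 or in RS, and for each member with a mean of at least 100, the 3 genes of highest r; genes named outside this rule were picked once their values were known. The members and lists were chosen with earlier results of these data known. Scripts ran in Python 3.11.15 with sympy 1.14.0, mpmath 1.4.1, scipy 1.17.1, numpy 2.4.6, matplotlib 3.10.9 and pandas 2.3.3. Some single-gene results of the signalling lists are not reported here.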

Additional observations from a re-analysis of the deposited data

Results flagged for a closer look

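The values below are differences of log2 fold changes against the same untreated libraries, first inducer minus second, each past an adjusted p of 0.05 in a test of the difference itself over 14898 genes. They were chosen because the same gene responded differently to 2 inducers on the same day. No group held enough libraries for a check of single outlying samples.

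On day 0, PMD-Sen minus DDR-Sen was -2.10 for IGFBP2, -1.99 for IGFBP4, -1.56 for IGFBP5, -1.07 for IGFBP6, -0.86 for IGFBP7 and -1.20 for IGF1R. PMD-Sen minus Ca2+-Sen was -0.85 for IGFBP2, 2.50 for IGFBP3, -2.81 for IGFBP5 and -1.59 for IGF1R. Ca2+-Sen minus DDR-Sen was -1.53 for IGFBP3, -1.84 for IGFBP4, 1.26 for IGFBP5, -1.07 for IGFBP6, -0.72 for IGFBP7 and 0.39 for IGF1R.

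On day 16, PMD-Sen minus Ca2+-Sen was 1.35 for IGFBP2 and 0.78 for IGFBP4. Ca2+-Sen minus DDR-Sen was -2.41 for IGFBP2, -0.77 for IGFBP4 and -0.79 for IGFBP7.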

How the results depend on the processing

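The calls of the members against untreated cells numbered 27 in PMD-Sen, 24 in Ca2+-Sen, 36 in DDR-Sen and 3 in RS. Requiring also a log2 change of at least 1 left 8, 6 and 9 in the 3 inducers and 2 in RS, and a Bonferroni adjustment left 15 in PMD-Sen, 12 in Ca2+-Sen, 24 in DDR-Sen and 2 in RS. Under the other filters, the other scalings and the deposited adjusted p-values, these counts were 27 in PMD-Sen, 23 to 27 in Ca2+-Sen, 32 to 38 in DDR-Sen and 3 to 4 in RS. The calls of differences between inducers numbered 16 to 17 on day 0 and 5 to 6 on day 16, those between day 16 and RS 3 to 4, and those between day 16 and day 0 of an inducer 12 to 14. No direction was reversed. Other scalings shifted the median of all genes by at most 0.068 on the log2 scale. Leaving out each library in turn, added after seeing the data and giving values without a test, kept the direction of 90 of 90 called changes and moved 1 by over 1.5 times, IGFBP2 in RS. No paired analysis was possible because the recovered libraries carry no replicate numbers. With 2 libraries a group and the shallowest libraries among the untreated ones, IGF1, IGF2 and IGFBP1 were limited by their few reads.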

Other observations

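The neighbours IGFBP2 and IGFBP5 on chromosome 2 did not keep 1 direction relative to each other. On day 0 of DDR-Sen, IGFBP2 was called higher (1.27, SE 0.50) and IGFBP5 lower (-0.78, SE 0.31), and both calls were close to the threshold. On day 0 of PMD-Sen both were called lower (-0.83 and -2.33), and on day 8 of Ca2+-Sen both were called higher (1.64 and 1.09). The ratio of the 2 genes within a library was not tested.

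Day 8 of Ca2+-Sen had IGFBP2, IGFBP4, IGFBP5, IGFBP7 and IGF1R called higher together, by 1.64, 0.89, 1.09, 0.41 and 0.58, with IGFBP3 lower, at -0.59. The fibroblast markers had their highest summed level, 624163, in the same group, and 33.3% of all tested genes were called there. On day 16 IGFBP7 remained called higher, and IGFBP6, not called on day 8, was called lower.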
